A study of Mus musculus with 6 samples.

Results

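The Toll-like receptor (TLR) genes were examined in N9 microglia, an immortalized line derived from mouse brain, grown as 1 line in RPMI medium with fetal bovine serum. The members were the genes named Tlr1, Tlr2, Tlr3, Tlr4, Tlr5, Tlr6, Tlr7, Tlr8, Tlr9 and Tlr13, which are 10 of the 54532 genes in the deposited count table. RNA-seq was performed on 3 libraries of unstimulated control cells and 3 libraries of cells given lipopolysaccharide (LPS), the glycolipid of Gram-negative bacterial envelopes, at 1 µg/ml for 6 h. No genotype other than that of the line was given, and both groups shared the same line and medium. The labels did not say whether the libraries of a group came from separate cultures, so the p-values below measure the spread between these libraries, which may be technical.

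TLRs are membrane receptors of the innate immune system that bind molecules typical of microbes and recruit adaptor proteins through a cytoplasmic TIR domain. In macrophages and microglia, the receptors encoded by Tlr1, Tlr2, Tlr4, Tlr5 and Tlr6 act at the cell surface on lipoproteins, LPS and flagellin, whereas those encoded by Tlr3, Tlr7, Tlr8, Tlr9 and Tlr13 act in endosomes on nucleic acids. The adaptor MyD88 serves every TLR except TLR3, the adaptor TRIF serves TLR3 and TLR4, and both routes lead to NF-kappa B and interferon regulatory factors.

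The libraries held 16589508 to 17956772 counts in the control group and 16363767 to 17015639 in the LPS group, so that 3 counts, taken as the limit that a count of 0 allows, corresponded to 0.161 to 0.19 counts per 1000000 counts (CPM), where the total of each library was scaled by its TMM factor, a correction for composition (0.9646 to 0.9699 in LPS and 1.034 to 1.036 in control libraries). Of 15 genes that mark microglia and macrophages, 11 were counted well enough to be tested, and their summed level was 1732 to 1756 CPM in control and 1867 to 1876 CPM in LPS libraries. Of the 11, 3 rose (Csf1r, Ptprc and Spi1), 3 fell and 5 did not pass (18.7% of all genes tested rose and 15.7% fell by edgeR), and the log2 fold change was 0.58 for Spi1 and −0.52 for Trem2. Csf1r, Ptprc, Spi1 and Trem2 were among those well counted. The markers P2ry12 (3 to 6 counts), Sall1 (0 to 1 count), Aif1 (4 to 9 counts) and C1qa were too low to be tested. C1qa held 10, 11 and 8 counts in control and 0, 3 and 6 in LPS libraries. Markers of other brain cells summed to fewer counts than the microglial and macrophage list. In control and LPS libraries the sums were 414 to 472 and 284 to 311 for neurons, and 493 to 555 and 353 to 414 for astrocytes. They were 624 to 686 and 464 to 476 for oligodendrocytes, and 6 to 17 and 26 to 38 for endothelium. Most counts of the neuron, astrocyte and oligodendrocyte lists came from Map2, Aldh1l1 and Mbp, which fell. Their control means of 22.5, 28.3 and 36.1 CPM lay above that of Tlr6, at 14.4 CPM. Syp held 11 to 34 and Slc1a2 3 to 18 counts in each library, and neither passed the test. By contrast, Stmn2, Aqp4, Mog and Cldn5 held 0 to 2 counts in each library. Of the endothelial list, Kdr was tested and rose from 2, 2 and 8 to 13, 19 and 21 counts (log2 fold change 2.24, edgeR adjusted p = 0.00355), passing the filter on low counts through its LPS libraries alone. Cdh5 went from 5, 2 and 5 to 10, 13 and 9 counts and Pecam1 from 3, 1 and 3 to 3, 6 and 4. In CPM both lay higher in LPS libraries without overlap, and neither was tested. Cldn5, Tek and Emcn held 0 or 1 count in each library. The part of these markers of other cells in the results was not tested. The libraries of control replicates 2 and 3 stood apart in 12 hepatocyte genes, with 293 and 486 summed counts, against 8 in control replicate 1 and 4 to 13 in the LPS libraries. Members whose call or value changed by over 1.5 times without those 2 libraries have that value beside the result.

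Of the 10 TLR genes, 9 passed the filter on low counts and 6 of these differed between LPS and control by edgeR's quasi-likelihood test (adjusted p under 0.05). Tlr2, Tlr3, Tlr6 and Tlr9 rose, and Tlr4 and Tlr8 fell. Of all 12296 genes tested, 34.3% passed the same test, 18.7% as higher and 15.7% as lower. Of the genes called, 54.3% were higher and 45.7% lower, a split that became 31.3% and 68.7% with no TMM factors. With no TMM factors 4 members were called higher and 3 lower, Tlr13 being added, against 12.4% and 27.2% of all genes tested. The stricter rule for a differentially expressed gene (DEG), which adds an absolute log2 fold change above 1.5, was met by Tlr2 and Tlr3 as higher and Tlr8 as lower, against 2.65% of all genes tested (2.4% higher and 0.252% lower). Tlr8 passed the filter through its control libraries alone, so that its entry in these counts says little, and without it 5 of 8 tested members were called and 2 were DEG. Without control replicates 2 and 3, which leaves 1 control library that is assumed to vary like the LPS libraries, the members called were 5 and the DEG 2, again without Tlr8, and 21.9% of the 12940 genes then tested were called, 2.58% as DEG. The same assumption holds for every value given without those 2 libraries. By edgeR's glmTreat, which tests the fold against the DEG threshold, 2 members passed, as did 1.49% of all genes tested. The control and LPS libraries did not overlap for 8 of the 9 tested members (7 of 8 without Tlr8), Tlr1 being the exception, against 45.3% of all genes tested. They lay higher in LPS for 5 members (23.7% of all genes tested) and lower for 3 (21.5%), Tlr8 among the latter; by total counts alone Tlr7 overlapped and the other 7 did not. The median log2 fold change was 0.11 over the 9 tested members and 0.0036 over all genes tested. These are levels in bulk RNA, in which a lower level per cell and fewer cells that express a gene cannot be told apart.

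**Figure D1:**
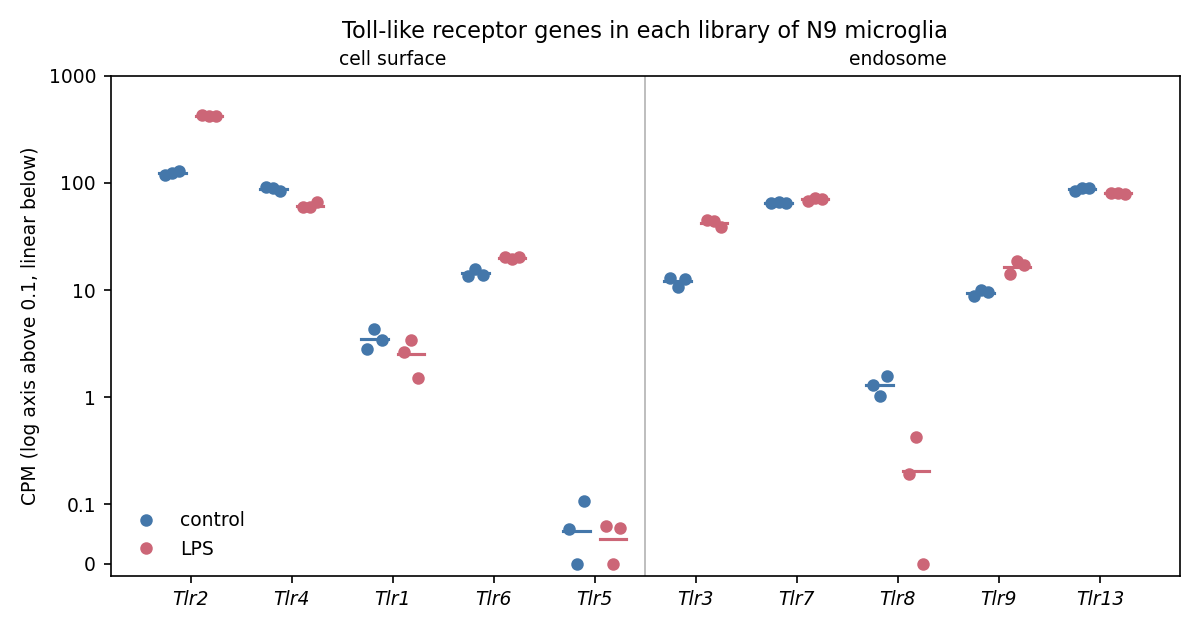
CPM of each TLR gene in every library, on an axis shared by all genes that is logarithmic but for the lowest levels. Points are libraries (3 control, 3 LPS) and bars are group means. Tlr2 rose from a mean of 124 to 424 CPM and Tlr3 from 12.1 to 42.3 CPM, whereas the points of the 2 groups overlapped for Tlr1 and Tlr5.

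**Figure D2:**
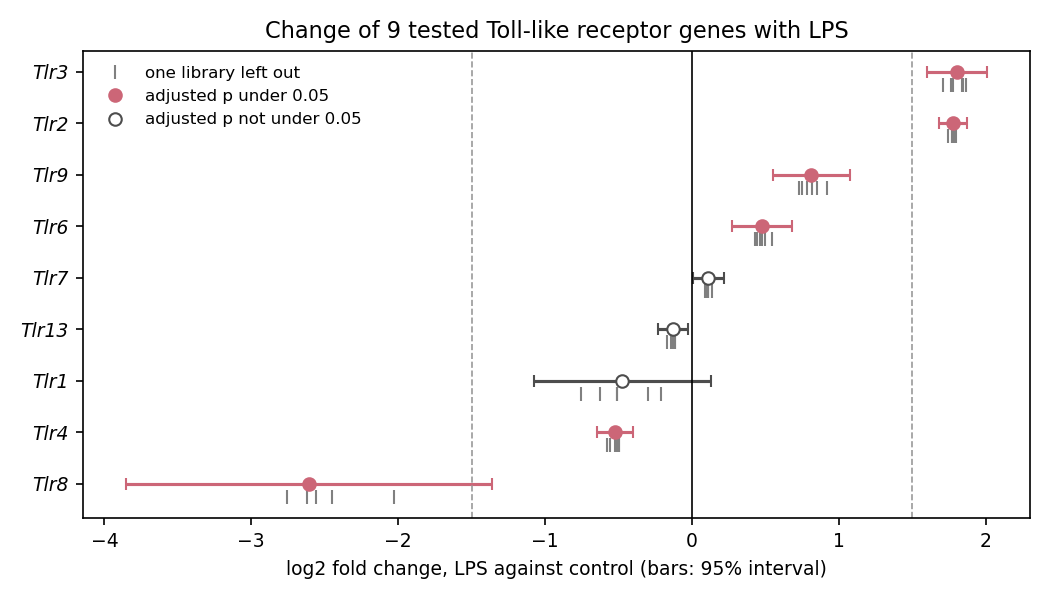
Log2 fold change (LPS over control) of the 9 tested TLR genes from edgeR, with the 95% interval as a line, the refits that leave out 1 library as ticks, and dashed lines at the DEG threshold of 1.5 in either direction. Tlr2 and Tlr3 lie at 1.78 and 1.80, while Tlr8 lies at −2.61 with the widest interval of the 9; its refit without LPS replicate 2, which leaves 3 and 0 counts in the LPS libraries, is not drawn.

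Among the surface receptors, Tlr2, which encodes the receptor shared by pairs that bind bacterial lipoproteins, had the highest level and rose 3.43-fold. Its counts were 2042, 2174 and 2379 in control and 6743, 6878 and 6976 in LPS libraries. Every LPS library lay far above every control library, and the libraries within a group lay close together, at 124 ± 4.39 CPM in control and 424 ± 4.05 CPM in LPS (SD, n = 3). The log2 fold change was 1.78 (SE 0.04, 95% interval 1.69 to 1.87, edgeR adjusted p = 1.61e-13), and leaving out each library in turn moved it between 1.74 and 1.80. Tlr2 (ENSMUSG00000027995) lies on the minus strand of chr3:83836272-83841767 in mm10, and its whole coding sequence of 2352 bases is in 1 exon.

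Tlr4, which encodes the receptor that binds LPS together with its partner MD-2, moved in the opposite direction. The control libraries held 1557, 1578 and 1572 counts and the LPS libraries 933, 970 and 1084. All LPS libraries lay below all control libraries, at 61.4 ± 3.96 against 88.3 ± 3.32 CPM (SD, n = 3). Tlr4 fell 1.44-fold, with a log2 fold change of −0.52 (SE 0.06, 95% interval −0.64 to −0.40, edgeR adjusted p = 3.64e-06), which is short of the DEG threshold. Tlr4 (ENSMUSG00000039005, plus strand of chr4:66827584-66930284) has 3 coding exons, the largest of which holds 89.7% of its coding bases.

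Of Tlr1 and Tlr6, whose products pair with TLR2 to bind triacylated and diacylated lipoproteins respectively, only Tlr6 passed the test. Tlr6 held 232, 278 and 257 counts in control and 318, 320 and 336 in LPS libraries, with no overlap between the groups. It rose 1.39-fold, from 14.4 ± 1.21 to 20.04 ± 0.482 CPM (SD, n = 3), with a log2 fold change of 0.48 (SE 0.09, 95% interval 0.28 to 0.68, edgeR adjusted p = 0.00109). Tlr1 held only 48, 77 and 63 counts in control and 42, 56 and 25 in LPS libraries. The groups overlapped, since 1 LPS library lay above the lowest control library, and the log2 fold change of −0.47 did not pass the test (SE 0.28, 95% interval −1.08 to 0.13, edgeR adjusted p = 0.22). Leaving out each library in turn gave −0.75 (without LPS replicate 2) to −0.21 (without LPS replicate 3), and −0.30 without control replicate 2, and the value was −0.14 without control replicates 2 and 3. The interval for Tlr1 therefore ranges from a fall larger than that of Tlr4 to a small rise.

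Tlr1 (ENSMUSG00000044827, chr5:64924679-64933563) and Tlr6 (ENSMUSG00000051498, chr5:64952031-64960097) are neighbours on the minus strand, 18467 bases apart, and share coding sequence. Both have a single coding exon, and the longest identical run is 229 bases, from coding base 1468 to 1696 of Tlr1 and 1507 to 1735 of Tlr6. Of all 100-base windows of the coding sequence, 11.3% in Tlr1 and 11.2% in Tlr6 occur unchanged in the other gene (150-base windows, 6.22% and 6.13%). No other pair of members shares a 50-base window. How reads that fit both genes were counted is not given in the sources used here, so the counts of Tlr1 and Tlr6 are uncertain in these stretches, and their part in the values was not tested. The run is given with the 30 bases on either side, 5′ to 3′ on the coding strand, from the GENCODE M21 transcripts on GRCm38. A read that lies wholly within the run cannot be assigned to 1 gene by its own sequence. Capitals mark the identical run, in Tlr1 within chr5:64925507-64925795 and in Tlr6 within chr5:64953798-64954086.
Tlr1: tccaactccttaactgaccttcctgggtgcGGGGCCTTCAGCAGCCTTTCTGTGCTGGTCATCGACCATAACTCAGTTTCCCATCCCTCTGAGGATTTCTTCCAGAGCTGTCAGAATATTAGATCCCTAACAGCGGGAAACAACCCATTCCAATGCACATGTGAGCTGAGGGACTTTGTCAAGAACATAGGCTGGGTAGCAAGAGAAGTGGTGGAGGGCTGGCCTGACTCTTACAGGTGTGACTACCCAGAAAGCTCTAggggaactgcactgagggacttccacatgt
Tlr6: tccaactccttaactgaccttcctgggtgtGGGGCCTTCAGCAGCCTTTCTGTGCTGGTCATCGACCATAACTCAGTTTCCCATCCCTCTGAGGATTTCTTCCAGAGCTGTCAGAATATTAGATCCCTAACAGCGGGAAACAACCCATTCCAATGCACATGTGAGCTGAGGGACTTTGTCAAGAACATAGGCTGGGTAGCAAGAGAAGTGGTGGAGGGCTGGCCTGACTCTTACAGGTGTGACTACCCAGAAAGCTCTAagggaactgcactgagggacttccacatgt

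Tlr5, which encodes the flagellin receptor, was close to undetected. It held 1, 0 and 2 counts in control and 1, 0 and 1 in LPS libraries, all at or under the limit of 3 counts, so no fold was taken and the gene was not tested. A difference in Tlr5 (ENSMUSG00000079164, chr1:182954788-182976044) was not detectable at this depth. Tlr11 and Tlr12, which complete the family in the mouse, held 0 counts in every library.

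Among the endosomal receptors, Tlr3, whose product binds double-stranded RNA, rose 3.49-fold. The control libraries held 223, 187 and 237 counts and the LPS libraries 703, 717 and 636. The lowest LPS library held more than the highest control library, and the levels were 12.1 ± 1.33 CPM in control and 42.3 ± 3.15 CPM in LPS (SD, n = 3). The log2 fold change was 1.80 (SE 0.10, 95% interval 1.60 to 2.01, edgeR adjusted p = 1.19e-09), with a range of 1.71 to 1.86 when each library was left out in turn. Tlr3 (ENSMUSG00000031639, minus strand of chr8:45395665-45411080) has 4 coding exons. The antisense gene Gm45542 was the only annotated gene that overlaps a member, and it held 0 counts in every library.

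Tlr9, which encodes the receptor for DNA with unmethylated CpG, rose 1.76-fold. It held 149, 177 and 177 counts in control and 221, 303 and 282 in LPS libraries. The groups did not overlap, although LPS replicate 1 lay well below the other 2 LPS libraries, at 14.0 CPM against 18.5 and 17.2 CPM. The group levels were 9.42 ± 0.674 CPM and 16.6 ± 2.30 CPM (SD, n = 3), and the log2 fold change was 0.81 (SE 0.12, 95% interval 0.55 to 1.08, edgeR adjusted p = 1.03e-04). Tlr9 (ENSMUSG00000045322) lies on the plus strand of chr9:106222598-106226883. B cells and plasmacytoid dendritic cells are known for their TLR9, and the defining markers Ms4a1 and Siglech held 0 counts in every library. Of the 5 B cell markers used, Pax5 held 18, 11 and 10 counts in LPS and 0 in control libraries. Those 5 markers summed to between 0 and 0.292 CPM in control and to between 0.67 and 1.46 CPM in LPS libraries. The 6 plasmacytoid dendritic cell markers summed to 2172 to 2310 counts in control and 3413 to 3550 counts in LPS libraries, nearly all of them from Tcf4 and from Bst2, an interferon-induced gene that rose.

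Tlr7 and Tlr8 encode receptors for single-stranded RNA and are neighbours on the minus strand of chromosome X, 40599 bases apart. Tlr7 (ENSMUSG00000044583, chrX:167304929-167330558) held 1111, 1165 and 1219 counts in control and 1078, 1195 and 1169 in LPS libraries. With TMM factors, every LPS library lay slightly above every control library, at 70.8 ± 2.30 against 65.5 ± 0.598 CPM (SD, n = 3). The log2 fold change of 0.11 (SE 0.05, 95% interval 0.01 to 0.22, not adjusted for the number of genes) did not pass the test after adjustment (edgeR adjusted p = 0.0969). By total counts alone the groups overlapped, since LPS replicate 1 at 65.9 CPM lay below the controls at 67.0 to 68.2 CPM, and with no TMM factors the log2 fold change was 0.01. The upper end of that interval is small beside the rises of Tlr2 and Tlr3.

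Tlr8 (ENSMUSG00000040522, chrX:167242696-167264329) had the lowest level of the tested members, and its counts fell from 22, 18 and 29 in control to 3, 7 and 0 in LPS libraries. No LPS library reached the lowest control library. The levels were 1.29 ± 0.27 CPM in control and 0.206 ± 0.214 CPM in LPS (SD, n = 3), and only the control libraries reached the filter on low counts. The log2 fold change was −2.61 (SE 0.58, 95% interval −3.85 to −1.36, edgeR adjusted p = 0.00271), a level 6.09-fold lower. The size rests on a handful of counts. Without LPS replicate 3, which holds the count of 0, the log2 fold change was −2.03, and without LPS replicate 2 only 3 counts remained in the LPS group against 69 in control, a ratio of counts scaled to library size of 13.9 (95% exact interval 4.56 to 68.9, counting error only). Without control replicates 2 and 3, the libraries with hepatocyte counts, the log2 fold change was −2.60 and the edgeR adjusted p was 0.0614, with 1 control library left. Control replicate 1, with 8 summed hepatocyte counts, held 22 counts of Tlr8, and control replicates 2 and 3 held 18 and 29. The part of the hepatocyte counts in the Tlr8 value was not tested. When the fold itself was tested against 1.5 on the log2 scale with edgeR's glmTreat, Tlr2 (adjusted p = 9.19e-05) and Tlr3 (adjusted p = 0.0475) passed and Tlr8 did not (adjusted p = 0.681).

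Tlr13, whose product binds bacterial ribosomal RNA, ranked second in level per kilobase of gene length in both groups. Its counts were 1433, 1576 and 1651 in control and 1259, 1331 and 1292 in LPS libraries. All LPS libraries lay below all control libraries, at 79.9 ± 1.25 against 87.3 ± 3.14 CPM (SD, n = 3). The log2 fold change of −0.13 (SE 0.05, 95% interval −0.23 to −0.03) lay just outside the threshold (edgeR adjusted p = 0.0509), and 5 of the alternatives in the closing section put it inside. Without control replicates 2 and 3, which leaves 1 control library, it was −0.07 (edgeR adjusted p = 0.545). Tlr13 (ENSMUSG00000033777) lies on the plus strand of chrX:106143204-106160493.

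Promoter windows, from 250 bases before to 50 after an annotated start, were taken from RefSeq on GRCm38.p6 and matched 8 of the 10 members, with no window for Tlr4 or Tlr7 in the table used. Each window was searched on both strands for 5 letter patterns, namely 2 forms of the NF-kappa B motif (GGGA, any 2 bases, TTCC, and GGGA, any 1 base, TTCCC), the interferon-stimulated response element (ISRE, GAAA, any 2 bases, GAAA), the PU.1 motif (GAGGAAGT) and the AP-1 motif (TGANTCA). The windows of the 4 members that rose are given 5′ to 3′ on the strand of the gene, with matches in capitals. For Tlr6 the window that holds a match is shown, and its second window had none. The windows are those of Tlr2 at chr3:83841559-83841858 (minus), Tlr3 at chr8:45410331-45410630 (minus), Tlr6 at chr5:64959117-64959416 (minus) and Tlr9 at chr9:106222348-106222647 (plus).
Tlr2: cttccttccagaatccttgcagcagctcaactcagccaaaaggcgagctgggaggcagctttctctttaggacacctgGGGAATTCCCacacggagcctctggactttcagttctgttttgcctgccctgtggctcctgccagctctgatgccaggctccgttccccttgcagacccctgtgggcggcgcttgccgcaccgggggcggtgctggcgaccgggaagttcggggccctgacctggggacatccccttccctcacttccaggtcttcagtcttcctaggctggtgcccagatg
Tlr3: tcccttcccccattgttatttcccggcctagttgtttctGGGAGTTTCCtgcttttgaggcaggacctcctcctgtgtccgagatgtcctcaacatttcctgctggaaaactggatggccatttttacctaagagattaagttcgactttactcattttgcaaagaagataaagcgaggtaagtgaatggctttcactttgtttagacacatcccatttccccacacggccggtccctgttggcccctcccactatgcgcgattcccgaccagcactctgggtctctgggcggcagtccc
Tlr6: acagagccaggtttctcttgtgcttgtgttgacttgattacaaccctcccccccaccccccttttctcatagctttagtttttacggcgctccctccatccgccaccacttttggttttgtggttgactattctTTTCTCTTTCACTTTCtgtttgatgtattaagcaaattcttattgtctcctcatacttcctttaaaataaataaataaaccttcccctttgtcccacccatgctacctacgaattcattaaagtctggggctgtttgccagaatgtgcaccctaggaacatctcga
Tlr9: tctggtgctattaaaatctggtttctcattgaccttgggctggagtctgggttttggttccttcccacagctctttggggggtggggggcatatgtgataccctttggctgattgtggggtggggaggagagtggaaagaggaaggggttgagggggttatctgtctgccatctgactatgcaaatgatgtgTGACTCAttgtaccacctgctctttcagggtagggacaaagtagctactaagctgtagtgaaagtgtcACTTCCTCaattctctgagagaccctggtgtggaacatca

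In the Tlr2 window, GGGAATTCCC began 172 bases before the start and reads the same on both strands; its pattern occurs in 0.359% of all 32851 windows. The Tlr3 window held GGGAGTTTCC 211 bases before the start, a match to the other NF-kappa B form, which occurs in 1.47% of windows. The Tlr6 window held 2 overlapping ISRE matches on the minus strand of the window, 116 and 110 bases before the start, against 3.44% of windows with at least 1. The Tlr9 window held an AP-1 match 58 bases before the start (7.81% of windows) and a PU.1 match on the opposite strand just after the start (3.2% of windows). Tlr1, which did not pass the test, held a PU.1 match 23 bases before 1 of its starts. None of the 5 patterns was found in the windows of Tlr5, Tlr8 and Tlr13. The RefSeq starts of the Tlr2, Tlr3 and Tlr6 windows shown lie 159, 700 and 931 bases from the starts in the count table. The second Tlr6 window, which held no match, has its start 49 bases from that of the table. These matches describe the letters of the windows and are not measured binding.

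To compare genes with each other, CPM was divided by gene length in the table and expressed per kilobase. In control cells Tlr2 led at 41.0 ± 1.46 CPM per kb, followed by Tlr13 at 20.3 ± 0.73, Tlr7 at 16.04 ± 0.146 and Tlr4 at 15.9 ± 0.597 (SD, n = 3). The libraries of Tlr7 and Tlr4 overlapped, so those 2 could not be ordered. A step of 4.12-fold separated Tlr4 from Tlr6 at 3.86 CPM per kb, after which came Tlr9 at 2.71, Tlr3 at 2.33, Tlr1 at 1.05 and Tlr8 at 0.359. These neighbours did not overlap, although the lowest Tlr9 library (2.501) and the highest Tlr3 library (2.5) nearly met. In LPS libraries Tlr2 stood at 140.6 ± 1.34 CPM per kb, 7.58-fold above Tlr13 at 18.6, where the same step in control was 2.02-fold. Tlr7 at 17.3 and Tlr4 at 11.1 no longer overlapped. Tlr3 moved from rank 7 to rank 5 at 8.13 CPM per kb, above Tlr6 at 5.38 and Tlr9 at 4.76, whose libraries overlapped. Tlr8 in LPS could not be told from Tlr5.

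The summed level of the 10 members was 103.5 ± 2.10 CPM per kb in control and 206.7 ± 0.155 in LPS libraries (SD, n = 3). Tlr2 made up 39.1, 39.1 and 40.5% of that sum in control and 68.6, 67.4 and 68.1% in LPS libraries. The surface receptors together made up 59.7 ± 0.0846% and 76.4 ± 0.717%, but without Tlr2 the other surface members made up 20.1 ± 0.915% and 8.32 ± 0.261%. Tlr4 went from 15.4 to 5.35% of the sum, Tlr13 from 19.6 to 8.98% and Tlr7 from 15.5 to 8.39%, although the levels of Tlr13 and Tlr7 did not pass the test, while the sum itself grew. Tlr3 went from 2.25 to 3.93%. For the sum, the surface share with and without Tlr2 and each of these member shares the groups did not overlap, and the two-sided exact permutation test gave p = 0.1, the smallest that 3 against 3 libraries allow. The share of Tlr9 overlapped between groups, at 2.62 and 2.30% (exact permutation p = 0.2).

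**Figure D3:**
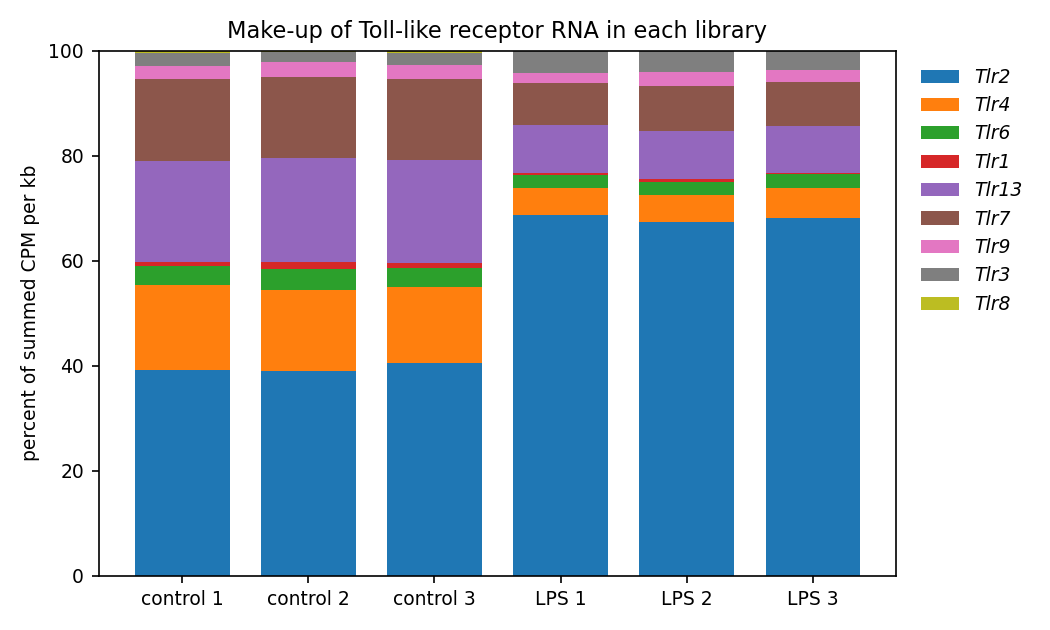
Share of the summed TLR level (CPM per kb, in percent) held by each member in each of the 3 control and 3 LPS libraries, drawn as stacked bars. Tlr2 takes 39.1 to 40.5% of each control bar and 67.4 to 68.6% of each LPS bar; Tlr5, at most 0.0214%, is not drawn.

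Pairs of receptors that form dimers, recognise related ligands or sit side by side were compared as log2 ratios of counts within each library (7 pairs, 0.5 added to each count). Gene length cancels in the change of such a ratio. The ratio of Tlr2 to Tlr4 was 0.39, 0.46 and 0.60 in control and 2.85, 2.83 and 2.69 in LPS libraries. This ratio, of the lipoprotein to the LPS receptor, was higher by 2.30 in LPS, with a range of 2.26 to 2.36 when each library was left out. The ratio of Tlr2 to Tlr1 was higher by 2.30 and that of Tlr2 to Tlr6 by 1.30. The ratio of Tlr1 to Tlr6 went from −2.04 ± 0.21 to −3.04 ± 0.62, a difference of −1.002 that became −0.66 without LPS replicate 3.

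Among the endosomal pairs, the ratio of Tlr7 to Tlr9 was lower in LPS by 0.69 (a difference of −0.69), and that of Tlr7 to Tlr13 was higher by 0.24. The ratio of Tlr7 to Tlr8 was higher by 3.27, a value that rests on few counts of Tlr8. It was 2.13 without LPS replicate 3, which holds the count of 0, and 4.07 without LPS replicate 2. The groups did not overlap in any of the 7 pairs. Each gave p = 0.1 by the two-sided exact permutation test (0.1 after adjustment over the 7), the smallest p possible with 3 against 3, so no pair could pass 0.05.

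**Figure D4:**
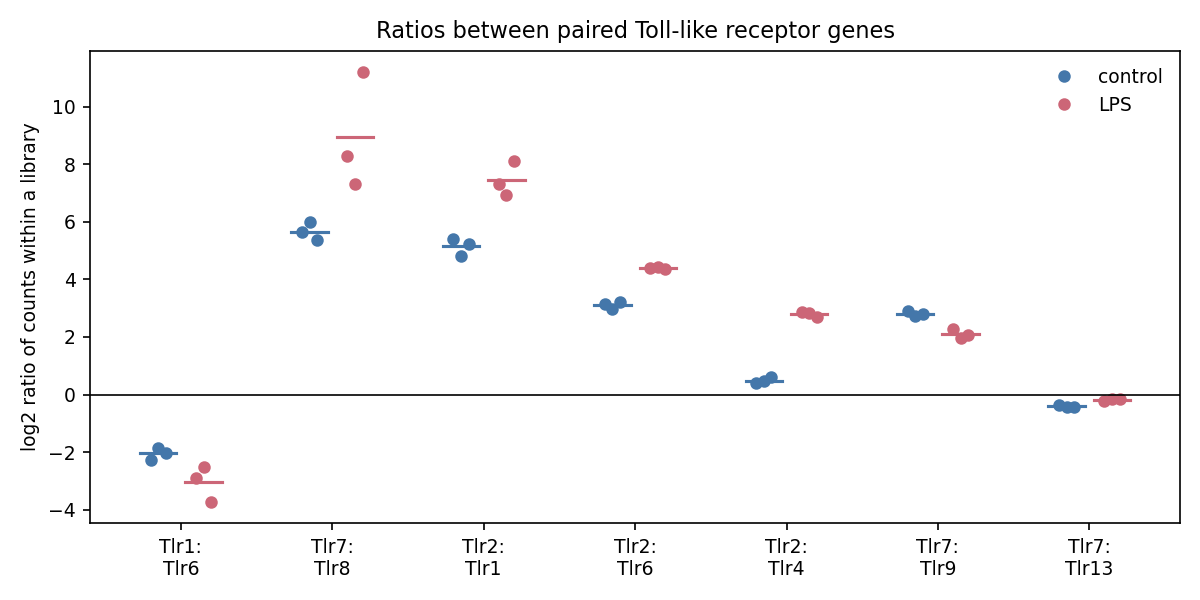
Log2 ratio of counts of 7 TLR pairs in each library; points are the 3 control and 3 LPS libraries and bars are group means. The groups are separate for each pair, by 2.30 for Tlr2 to Tlr4 and by 0.24 for Tlr7 to Tlr13, and the LPS points of Tlr7 to Tlr8 are spread widely.

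The proteins that work with the receptors were followed through lists of accessory, trafficking, adaptor and kinase, transcription factor, inhibitor and target genes, chosen with earlier results of these data known. Of all genes tested, 34.3% passed the test, 18.7% as higher and 15.7% as lower, and each list count stands against these shares. Of 7 accessory genes, 6 were tested, of which 2 rose, 1 fell and 3 did not pass, with a median log2 fold change of 0.05. Cd14, which hands LPS to TLR4, rose from 1712 ± 17.3 to 2621 ± 78.3 CPM (log2 fold change 0.61, SE 0.03, edgeR adjusted p = 2.14e-10). Ly96, which encodes MD-2, stood at 4.29 and 4.84 CPM with overlapping libraries (log2 fold change 0.18, SE 0.18, adjusted p = 0.492). Cd180, a TLR4-related receptor, rose by 0.42, and Cd36, a scavenger receptor that assists TLR2 with TLR6, fell by 0.32 on the log2 scale.

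Of 11 trafficking and processing genes, all tested, 5 rose, 2 fell and 4 did not pass, with no DEG and a median of 0.02 (18.7% of all genes tested rose and 15.7% fell). Unc93b1, which carries the nucleic acid-sensing TLRs to endosomes, rose by 0.22 on the log2 scale (SE 0.05, edgeR adjusted p = 0.00239). Ctsb and Ctsl, cathepsins of the endolysosome, and Slc15a4 and Ap3b1 also rose. Lgmn, the asparagine endopeptidase that cleaves TLR9, fell by 0.45 on the log2 scale (edgeR adjusted p = 6.09e-07), and Cnpy4 fell by 0.31.

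Of 20 adaptors and kinases, 10 rose, none fell and 10 did not pass, with a median of 0.21, against 18.7% higher and 15.7% lower among all genes. Myd88 rose by 0.55 (SE 0.05, edgeR adjusted p = 8.76e-07) and Ticam1, which encodes TRIF, by 0.81 (SE 0.08, adjusted p = 1.73e-06) on the log2 scale. The bridging adaptor Tirap rose by 0.26 (adjusted p = 0.0416), whereas its counterpart Ticam2 had a value of −0.20 that did not pass (adjusted p = 0.312). Ikbke, a kinase upstream of interferon regulatory factors, was the 1 DEG of the list at 1.81, and Irak2 rose by 1.30.

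Of 9 transcription factors, 7 rose, 1 fell and 1 did not pass, with a median of 0.82, where 18.7% of all genes were higher and 15.7% lower. Irf7, which drives type I interferon genes, rose from 9.19 ± 0.947 to 143.5 ± 7.78 CPM (log2 fold change 3.97, SE 0.07, edgeR adjusted p = 6.36e-15). The NF-kappa B genes Nfkb1, Nfkb2 and Relb rose by 1.36, 1.48 and 1.43, while Irf8 fell by 0.41 on the log2 scale. Of 11 inhibitors of TLR signalling, 6 rose, 1 fell and 4 did not pass, with a median of 0.50, beside the same shares. The DEG were Socs1 (2.37), Tnfaip3 (2.34), Irak3 (2.07) and Nfkbia (1.67), of which Socs1 passed the filter on low counts through its LPS libraries alone, and the gene that fell was Il1rl1, at −0.94.

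Of 12 target genes, 9 were tested and all 9 rose, 8 of them as DEG, against 18.7% higher and 2.4% higher as DEG among all genes. Of these 9, Il1a, Il1b and Nos2 passed the filter on low counts through their LPS libraries alone, so that their entry in the count says little. Tnf rose from 15.8 to 232.7 CPM (log2 fold change 3.88, SE 0.06, edgeR adjusted p = 1.56e-15) and the interferon-inducible chemokine gene Cxcl10 from 1.58 to 208.4 CPM (7.04, SE 0.11, adjusted p = 1.12e-15). Ifit1 and Cxcl2 rose by 7.07 and 6.60 on the log2 scale. Il1a held 0, 0 and 1 counts in control and 282, 287 and 252 in LPS libraries, and Nos2 held 0, 2 and 2 against 285, 385 and 312. Il6 held 0 counts in every control library and 10, 14 and 9 in LPS libraries and was not tested, as were Il12b (0 in every library) and Ifnb1 (0 or 1).

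**Figure D5:**
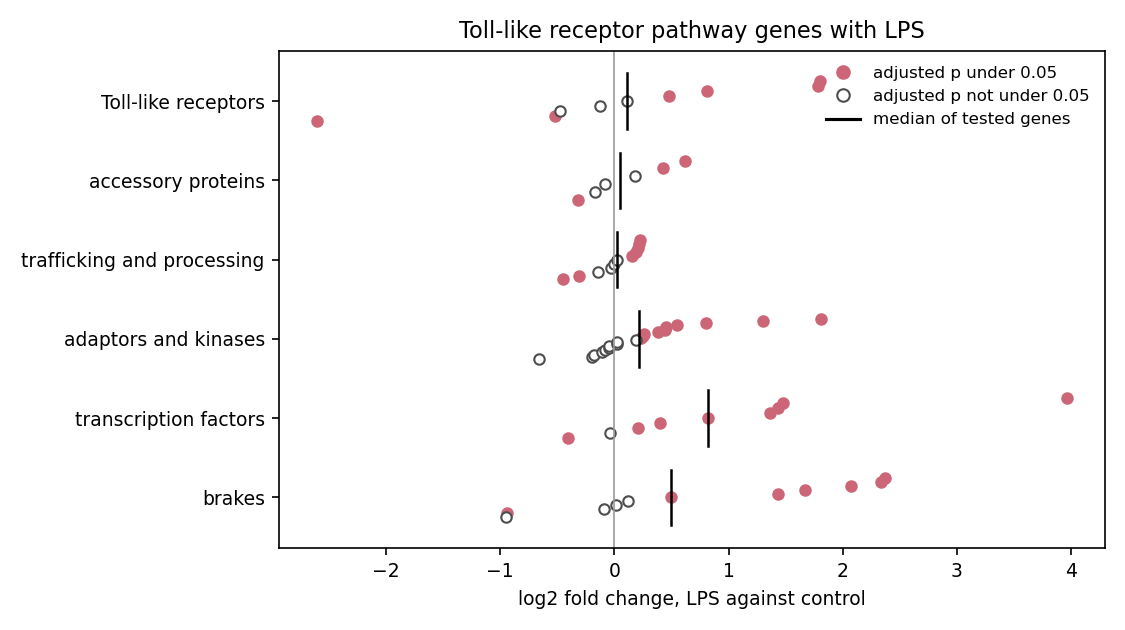
Log2 fold change (LPS over control, edgeR) of each tested gene in the TLR list and 5 lists of TLR pathway genes, with filled points for genes that passed the test, open points for those that did not and the list median as a bar (inhibitors are labelled brakes). Medians run from 0.02 for trafficking genes to 0.82 for transcription factors, with the members at 0.11.

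The genes whose pattern over the 6 libraries lay nearest to that of Tlr3, the member with the largest fitted rise, were found by Euclidean distance between values of log2(CPM + 0.5) centred on each gene's control mean. Nearest were Dusp1 (distance 0.145), Gsap (0.178) and Map3k8 (0.187), against a median distance of 3.08 over all genes compared. These distances describe 6 libraries in 2 groups. The rises of Tlr3 and Tlr2 differed by less than their SE, and that of Tlr2 was the larger without control replicate 2 (1.77 against 1.71), without LPS replicate 1 or 2, and without control replicates 2 and 3. For Tlr8, the member with the largest fall, no such genes are given, since at its counts the added 0.5 CPM compresses the differences.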

How the data were processed

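RNA-seq was performed on 6 libraries of N9 microglia (3 control, 3 LPS). The deposited values used are raw counts per gene, made by the authors' provider with featureCounts 1.5.0-p3 on mm10 per the submitters' processing notes; the aligner, annotation, strandedness and treatment of multi-mapped reads are not given in the sources used here. Gene length and coordinates, another column of the deposited table, were used for levels per kilobase. A second deposited table, with the authors' own comparison (fold changes and p-values) and 18 columns of values per sample, was not used.

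Counts were analysed in R 4.3.3 with edgeR 4.0.16 (TMM factors, which also enter CPM, filterByExpr, quasi-likelihood F test, prior count 0.125, Benjamini-Hochberg adjustment over 12296 genes); SE was the log2 fold change divided by the square root of F. The DEG rule, after the study's, was an absolute log2 fold change above 1.5 with an adjusted p under 0.05. DESeq2 1.42.0, other filters, scalings, a replicate block and leaving out libraries were alternatives. Exact permutation tests enumerated every split of the 6 libraries into 3 and 3 in Python 3.11.15, and intervals and adjustment over pairs used scipy 1.17.1. The fits were tested on simulated data. Totals of 16363767 to 17956772 counts set the limit of 3 counts, which covers counting error only. Genes were named by rule: all members, up to 5 DEG by size and defining genes of each pathway list, and the 3 nearest genes to the member with the largest rise (the rule also named those of the largest fall, left out for low counts). Other pathway genes were chosen after their values were seen. The members and lists were chosen with earlier results of these data known. A marker of the B cell list is not reported here.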

Additional observations from a re-analysis of the deposited data

How the results depend on the processing

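The 6 TLR genes called by edgeR were 6 or 7 when each library was left out in turn (27.0 to 32.5% of all genes tested), and no member changed direction in any alternative. Without control replicates 2 and 3, an alternative chosen after seeing the data, 1 member was called lower, since Tlr8 had an adjusted p of 0.0614 at a log2 fold change of −2.60 (−2.61 with all libraries). That fit has 1 control library, which is assumed to vary like the LPS libraries. Tlr13 came inside the threshold at −0.13 with a filter at a mean of 10 counts (adjusted p = 0.0485), at −0.13 with RLE size factors (0.0428), at −0.17 without control replicate 1 (0.0156) and at −0.23 with no normalization factors (0.00159). Over all genes, 326 were DEG, 183 by glmTreat, 360 by DESeq2, 469 with no filter, 305 with a prior count of 2, and 353 to 377 when each library was left out. With no normalization factors, which shifted the median of all genes to −0.0947, 5 accessory genes passed in place of 3. The genes called higher then went from 2294 to 1520 and those called lower from 1927 to 3342. The cause of the changes was not tested.

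Whether the replicate numbers pair the samples could not be decided, since each deviation was taken from a mean of only 3 libraries. Same-numbered libraries deviated together with correlations of 0.138, 0.0496 and 0.0296 over 10458 genes. Libraries with different numbers gave −0.0862 to 0.0429, and not every library correlated best with its own number. With a replicate block, 7 members and 36.4% of all genes tested were called, the added 1 being Tlr13 (log2 fold change −0.13, adjusted p = 0.0452). Depth limits Tlr5 and Tlr8, at 0 to 3 counts in some libraries.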
